A study of Mus musculus with 76 samples.

Results

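Regulatory T cells (Treg cells) sorted from the thymus at day 120 were compared between SOD1-G93A mice and wild-type (WT) mice. Libraries were chosen by their titles, which name the genotype, the population and the day, and 6 of the 76 libraries of the series belong here: 3 of SOD1-G93A mice and 3 of WT mice. SOD1-G93A mice, called SOD1 below, carry a mutant human SOD1 transgene and are used as a model of amyotrophic lateral sclerosis (ALS). The strain field reads SOD1-G93A for both genotypes, so that the WT group rests on its title and genotype field. Treg cells of day 30 (3 SOD1 and 3 WT libraries) and sorted CD4 T cells of day 120 (3 SOD1 and 3 WT libraries) are used only for comparison. The labels name cell sorting after digestion of the thymus and a low-input, full-length RNA kit, and they give neither the sort gates nor the sex of the animals nor the number of animals in a library. Where libraries did not come from separate animals, the p-values measure only the spread between libraries.

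Treg cells restrain immune responses and depend on the transcription factor Foxp3. In the thymus they arise from developing CD4 T cells whose receptors bind self-antigen strongly, and they need interleukin-2, which they take up through the receptor chain Il2ra. Mature Treg cells can also return to the thymus from the circulation. Superoxide dismutase 1, the enzyme encoded by SOD1, turns superoxide into hydrogen peroxide in the cytosol of all cells.

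Of 14824 genes tested, 2 differed between SOD1 and WT Treg cells at an adjusted p under 0.05, which is 0.0135% of the genes tested (edgeR quasi-likelihood test, Benjamini-Hochberg, 3 libraries a group). Both were higher in SOD1 cells. This count rests on a trended dispersion, which was adopted after a first fit with a dispersion per gene had called 27 genes, and DESeq2 called 44. The genes called were Sod1 itself and Gm8566, a processed pseudogene of Sod1, that is, a copy of its spliced transcript inserted elsewhere in the genome. At an unadjusted p under 0.05, 490 genes were on the higher side (3.31%) and 509 on the lower side (3.43%), and the median log2 fold change of all genes was 0.02. The libraries of the groups did not overlap for 676 genes on the higher side (4.56%) and 563 on the lower side (3.8%). All gene counts below are read against these shares.

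Sod1 lies on chromosome 16 (mm10, 90220754 to 90226329, plus strand) and Gm8566 on chromosome 6 (67205619 to 67206083, plus strand). Gm8566 matched the Sod1 transcript of GENCODE vM21 from the start codon on, along all its 465 bases, of which 455 were identical (97.8%) and 10 were substitutions.

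Sod1 had 756, 845 and 277 CPM (a gene's count relative to the scaled size of its library) in SOD1 libraries 1, 2 and 3, against 87.1, 58.4 and 53.6 CPM in WT libraries 1, 2 and 3. All SOD1 libraries stood above all WT libraries, and SOD1 library 3 was the lowest of its group. The means were 626 ± 306 CPM in SOD1 cells and 66.4 ± 18.1 CPM in WT cells (SD, n = 3 each). The log2 fold change was 3.23 ± 0.37 (SE) with an adjusted p of 0.00844 in edgeR's quasi-likelihood test. The call was lost without WT library 2 (adjusted p of 0.136) and in a fit of the 6 libraries alone (adjusted p of 0.248), at log2 fold changes of 3.15 and 3.22.

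Gm8566 had 224, 292 and 95.7 CPM in SOD1 libraries, against 0.0976, 0 and 0 CPM in WT libraries. It was thus counted in every SOD1 library and all but absent from WT cells, with 12439 counts summed over SOD1 libraries and 3 counts summed over WT libraries, all 3 from WT library 1. Over the summed counts the SOD1 to WT ratio was 2970, with a 95% interval of 1020 to 14400 that covers counting error only. Its adjusted p was 2.83e-05 in edgeR's quasi-likelihood test.

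Gm8566 made up a similar share in every SOD1 library. It held 22.8%, 25.7% and 25.7% of the counts of both genes together in SOD1 libraries 1, 2 and 3 of day 120 Treg cells, against 0.112%, 0% and 0% in the WT libraries. In day 30 Treg cells it held 24.3%, 20% and 19.6% in SOD1 libraries and 0.647%, 0% and 0% in WT libraries. In day 120 CD4 cells it held 20.4%, 23.7% and 17.2% in SOD1 libraries and 0.279%, 0.495% and 0% in WT libraries. Counts of near-identical loci depend on how reads that match both were assigned, so the level of either gene is uncertain. The counts are for mouse genes, and whether transcripts of the human transgene add to either row was not tested.

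The genotype difference in Sod1 was not shown to differ between days or populations. At day 30 its level was 500 ± 139 CPM in SOD1 and 48.5 ± 5.15 CPM in WT Treg cells (SD, n = 3 each), a log2 fold change of 3.37 ± 0.38. The difference between the days, day 120 minus day 30, was -0.15 ± 0.49 on the log2 scale (edgeR adjusted p of 1). In CD4 cells of day 120 the log2 fold change was 2.48 ± 0.50 with an adjusted p of 0.301, and the Treg value exceeded it by 0.74 ± 0.67 (edgeR adjusted p of 1).

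**Figure D1:**
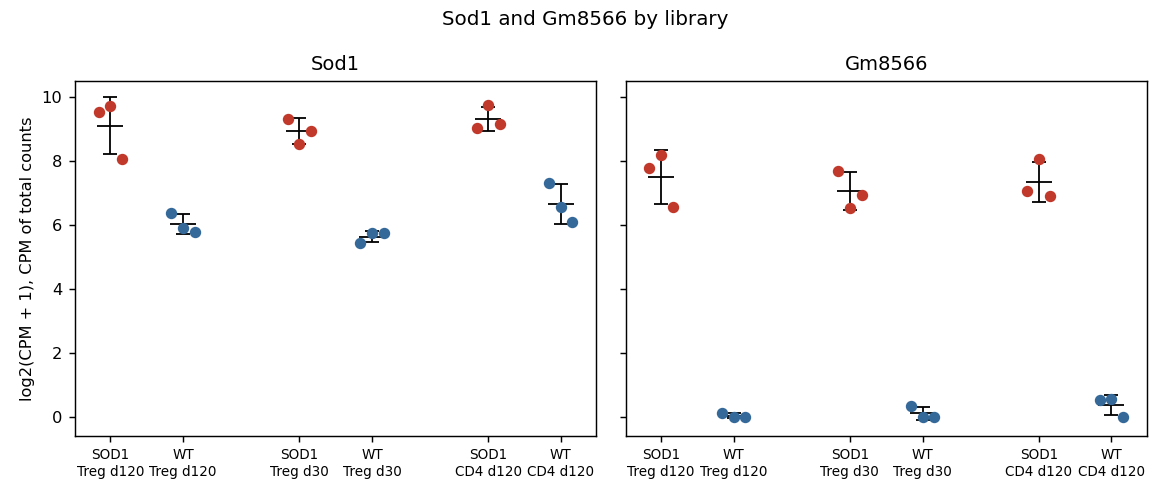
Levels of Sod1 (left) and Gm8566 (right) as log2(CPM + 1), with CPM taken over total counts, in 3 libraries a group (points), with the mean and SD (black). In each population and at each day the SOD1 libraries stand above the WT libraries, and Gm8566 is at or near 0 in WT.

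**Figure D2:**
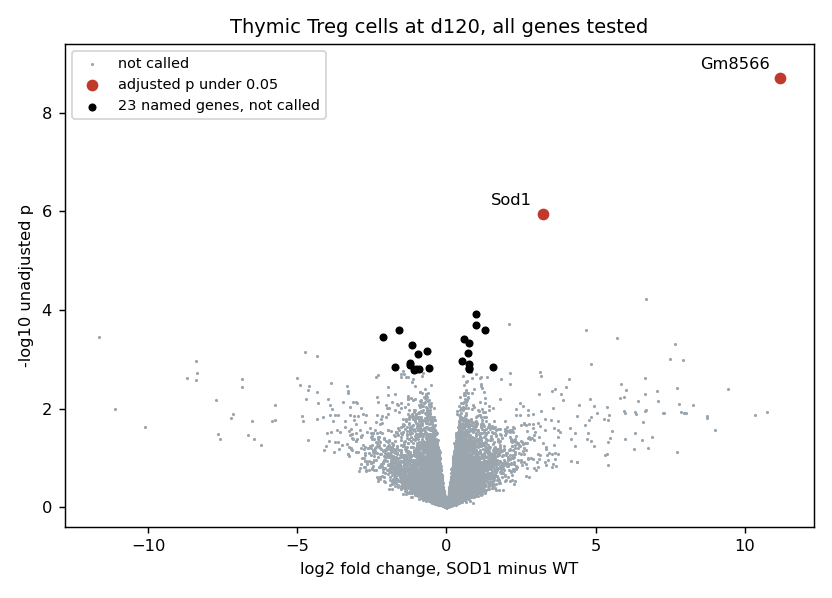
Log2 fold change, SOD1 minus WT (x axis), against -log10 of the unadjusted p (y axis) for the 14824 genes tested. Sod1 and Gm8566 (red) are the 2 genes called, and the 23 genes described further on (black) have adjusted p-values of 0.424 to 0.587.

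The numbers of the d120 libraries cross the genotypes. The number at the end of each column name runs from 1 to 6 over the d120 libraries, and numbers 1 to 3 hold SOD1 libraries 1 and 2 and WT library 1, while numbers 4 to 6 hold SOD1 library 3 and WT libraries 2 and 3. Libraries numbered 1 to 3 had 14915434 to 34151147 counts and 1.05% to 1.49% of them on mitochondrial genes, and those numbered 4 to 6 had 3241250 to 7271460 counts and 3.02% to 3.81%. What the numbers stand for is not given in the labels. The sets divided the libraries by depth and mitochondrial share. Libraries numbered 1 to 3 correlated best with each other, at 0.9593 to 0.965. SOD1 library 3 and WT libraries 2 and 3 each correlated best with a library numbered 1 to 3, WT library 1. Because the sets differ in depth, these correlations cannot decide whether the sets follow overall likeness. Numbers 4 to 6 minus numbers 1 to 3, within genotypes, gave 467 called genes (3.15% of those tested), 205 higher and 262 lower. This count rested on the fit, with 0 genes called from the 6 libraries alone, 9 by limma voom, and 10, 30 and 31 without SOD1 libraries 3, 1 and 2, against 1413 and 1456 without WT libraries 1 and 2. Of 13 mitochondrially encoded genes 11 were called higher in numbers 4 to 6, and of 38 nuclear genes of the respiratory chain 11 were called lower. With the set as a covariate, the genotype difference again gave 2 called genes (0.0135%), Sod1 at a log2 fold change of 2.76 ± 0.25 and Gm8566, with adjusted p-values of 0.00148 and 1.14e-05 (edgeR). Within numbers 1 to 3 the log2 difference of Sod1, on the log2(CPM + 1) scale, was 3.18, and within numbers 4 to 6 it was 2.29. Differences within numbers 1 to 3, here and below, rest on WT library 1 as the only WT library. Those within numbers 4 to 6 rest on SOD1 library 3 as the only SOD1 library.

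Foxp3 checked the sort. Over total counts it had 118 ± 40.6 CPM in SOD1 and 145 ± 89.2 CPM in WT Treg cells, against 17.5 ± 2.65 CPM in SOD1 and 11.5 ± 6.9 CPM in WT CD4 cells of the same day (SD, n = 3 each). Il2ra had 572 ± 136 CPM in SOD1 and 476 ± 88 CPM in WT Treg cells, and 14 ± 14.9 CPM in SOD1 and 12.9 ± 1.59 CPM in WT CD4 cells. All 28 genes of a Treg core list were detected in each of the 6 libraries. Markers of other cells were present too. Cd8a, a coreceptor that mature CD4-lineage cells lose, had 171 ± 11.9 CPM in SOD1 and 144 ± 12.6 CPM in WT Treg cells. In CD4 cells of that day Cd8a had 267 ± 99.4 CPM in SOD1 and 189 ± 39 CPM in WT. Cd4 had 112 ± 9.45 CPM in SOD1 and 128 ± 6.43 CPM in WT Treg cells, below Cd8a in both. Rag1, which recombines receptor genes in immature thymocytes, had 90.4 ± 7.01 CPM in SOD1 and 73.5 ± 16.6 CPM in WT Treg cells. In CD4 cells Rag1 had 88.2 ± 92.8 CPM in SOD1 and 46.7 ± 22.1 CPM in WT. Cd79a, a B cell receptor subunit, had 89.2 ± 2.57 CPM in SOD1 and 119 ± 65.3 CPM in WT Treg cells. In CD4 cells Cd79a had 20.5 ± 19.3 CPM in SOD1 and 59.4 ± 52.3 CPM in WT. In bulk libraries fewer cells of a type and less RNA per cell cannot be told apart.

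No gene of the Treg core list passed the test, although 23 of its 28 genes had a negative log2 fold change and the list's median was -0.28, beside 0.02 for all genes. Foxp3 had 108, 86.8 and 169 CPM in SOD1 libraries, against 258, 115 and 72.5 CPM in WT libraries, and the groups overlapped. WT library 1 was the highest and WT library 3 the lowest of the 6. Its log2 fold change was -0.31 ± 0.38 (edgeR adjusted p of 0.902).

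The sign of the genotype difference in the core list differed between the sets, without a test. Within numbers 1 to 3, 27 of 28 genes were lower in SOD1 (median log2 difference -1.05), and within numbers 4 to 6, 24 of 28 were higher in SOD1 (median 0.49). In all, 23 of 28 genes (82.1%) had opposite signs in the sets, beside 52.8% of all genes tested. WT library 1 held the highest level for 16 of the 28 genes (57.1%), beside 14.4% of all genes, and its summed core level was 4870 CPM, with 2760, 2680 and 4140 CPM in SOD1 libraries 1, 2 and 3 and 3370 and 2890 CPM in WT libraries 2 and 3. Without WT library 1 the list's median was 0.12. Tnfrsf4, the costimulatory receptor OX40, shows the pattern, at 174, 148 and 335 CPM in SOD1 libraries against 533, 201 and 215 CPM in WT libraries. Il2rb, the interleukin-2 receptor chain that signals, had 134, 106 and 225 CPM in SOD1 libraries, against 375, 102 and 159 CPM in WT libraries.

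**Figure D3:**
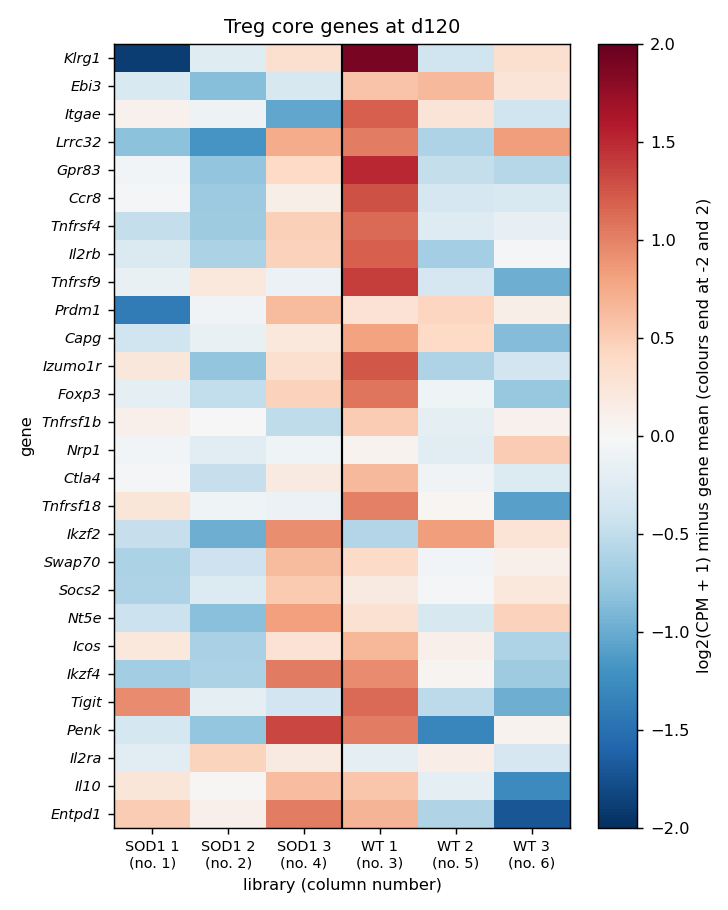
Levels of the 28 Treg core genes (rows, ordered by log2 fold change) in the 6 libraries (columns, SOD1 left of the black line and WT right of it), as log2(CPM + 1) minus the gene's mean. WT 1 holds the highest level for 16 genes and SOD1 3 for 9, so the rows do not divide by genotype.

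Ebi3, a subunit of interleukins 27 and 35, was the only core gene whose groups did not overlap, at 6.68, 4.25 and 6.65 CPM in SOD1 libraries against 13.1, 14 and 10.4 CPM in WT libraries (log2 fold change -1.10 ± 0.37, edgeR adjusted p of 0.673). Itgae, the integrin chain CD103, had 25.5, 22.2 and 11.2 CPM in SOD1 libraries, against 56.6, 28.9 and 18 CPM in WT libraries. It was lower in SOD1 within both sets, by log2 differences of -1.22 and -0.97, with overlapping groups overall (adjusted p of 0.738). Il2ra had 445, 710 and 594 CPM in SOD1 libraries and 457, 571 and 411 CPM in WT libraries. Ctla4, an inhibitory receptor, had 385, 288 and 447 CPM in SOD1 libraries and 620, 376 and 327 CPM in WT libraries, and Ikzf2, the transcription factor Helios, had 286, 198 and 747 CPM in SOD1 libraries and 260, 698 and 475 CPM in WT libraries. All 3 of these overlapped, with adjusted p-values of 0.811, 0.877 and 0.953.

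Beyond Sod1, 11 genes on the higher side were named by a rule that took the smallest unadjusted p among genes with a mean of at least 5 CPM and groups that did not overlap. None passed the test, although DESeq2 called 9 of them and a dispersion per gene 5. Their adjusted p-values ran from 0.424 to 0.587. The rule used the genotype contrast, and groups that do not overlap fix the sign within each set, so these values are a description. Mesd, a chaperone of the endoplasmic reticulum, had the smallest p of them. It had 71.6, 59.9 and 67.2 CPM in SOD1 libraries, against 39, 26.2 and 33.8 CPM in WT libraries. Ptp4a2, a phosphatase, had 907, 820 and 702 CPM in SOD1 libraries, against 410, 346 and 480 CPM in WT libraries (log2 fold change 0.98 ± 0.19). Atpaf1, an assembly factor of the mitochondrial ATP synthase, had 30.9, 39.9 and 41.1 CPM in SOD1 libraries, against 17.7, 12.6 and 15.2 CPM in WT libraries. Atpaf1 was at least 30.9 CPM in SOD1 libraries and at most 17.7 CPM in WT libraries, and no library of Mesd or Ptp4a2 crossed the groups either. Patz1, a zinc finger transcription factor expressed in thymocytes, had 348, 426 and 340 CPM in SOD1 libraries, against 256, 244 and 241 CPM in WT libraries. Psat1, an enzyme of serine synthesis, had 65.6, 64.6 and 55.7 CPM in SOD1 libraries, against 38.4, 38.6 and 34.4 CPM in WT libraries. The others were E2f1, Mcm2, Sephs1, Slfn9, Psmb5 and Vps26b, with log2 fold changes of 0.77, 0.52, 0.76, 1.57, 0.77 and 0.77.

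On the lower side the rule named 12 genes, with adjusted p-values in the same range (9 called by DESeq2, 6 with a dispersion per gene). The same limit holds for their values. Hk2, a hexokinase that starts glycolysis, had 7.25, 5.54 and 12.3 CPM in SOD1 libraries, against 21.5, 28.5 and 60.6 CPM in WT libraries (log2 fold change -2.14 ± 0.45). Myadm, a membrane protein, had 13.4, 13.4 and 9.61 CPM in SOD1 libraries, against 22, 34.5 and 54.2 CPM in WT libraries. WT library 3 was the highest of the 6 for both genes. Aff4, a scaffold of the super elongation complex of transcription, had 141, 130 and 139 CPM in SOD1 libraries, against 195, 217 and 236 CPM in WT libraries. Adm, the peptide hormone adrenomedullin, had 4.3, 5.81 and 2.83 CPM in SOD1 libraries, against 15.1, 15.5 and 12.2 CPM in WT libraries. Dock2, which activates Rac in lymphocytes, had 102, 83.8 and 104 CPM in SOD1 libraries, against 134, 150 and 151 CPM in WT libraries. Rock2, a kinase that acts on actin and myosin, had 53.8, 60.7 and 76.6 CPM in SOD1 libraries, against 81.6, 132 and 152 CPM in WT libraries. Cyfip1, a subunit of the WAVE actin regulator, had a log2 fold change of -0.96. The last 5 were C2cd5, Asb1, Adap1, Plcb2 and Trerf1, with log2 fold changes of -1.17, -1.21, -1.23, -1.01 and -1.10.

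**Figure D4:**
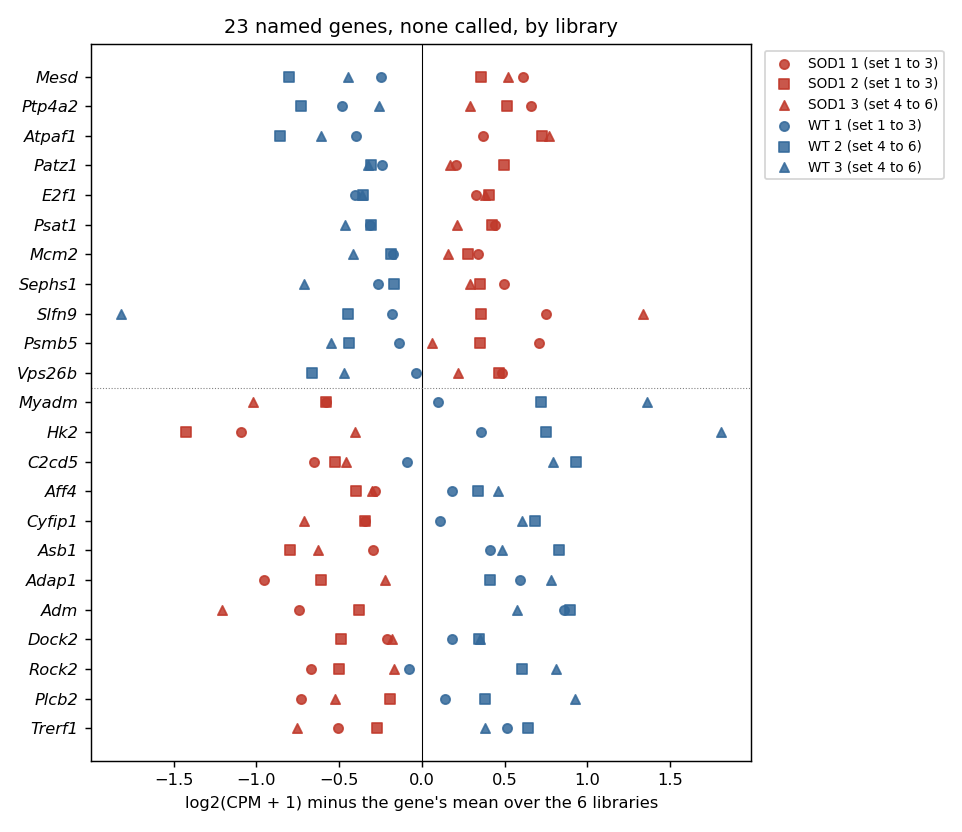
The 23 named genes, none of them called, in the 6 libraries, as log2(CPM + 1) minus the gene's mean (x axis), with SOD1 libraries in red, WT libraries in blue and the replicate shown by the marker. The rule chose genes whose groups do not overlap, so the separation of red from blue is given by the choice.

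The same genes at day 30 and in CD4 cells are given beside these values. At day 30, 5 of the 11 on the higher side and 7 of the 12 on the lower side had the sign of day 120. In CD4 cells of day 120 this held for 4 of 11 and 9 of 12. Aff4 had a log2 fold change of -0.66 ± 0.15 in Treg cells of day 120, 0.09 ± 0.15 at day 30 and 1.94 ± 0.41 in CD4 cells. None of the 14824 genes passed the test of the difference between days (smallest adjusted p of 0.752, 540 genes at an unadjusted p under 0.05), and none of 12485 passed that between populations (smallest adjusted p of 1, 350 genes), both in edgeR. DESeq2 called 6 genes between days, with Myadm and Adap1 among them, and 7 between populations, with Aff4 among them.

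Genes of DNA replication were on the higher side as a list, with 27 of 30 positive, a median log2 fold change of 0.21 (0.07 without SOD1 library 1) and none called. The groups did not overlap for 5 of the 30, beside 4.56% of all genes. E2f1, a transcription factor that drives entry into S phase, had 45.3, 48 and 47.1 CPM in SOD1 libraries, against 26.9, 27.9 and 27.7 CPM in WT libraries (adjusted p of 0.476). Mcm2, a subunit of the replicative helicase, had 168, 161 and 148 CPM in SOD1 libraries, against 117, 116 and 99 CPM in WT libraries. Mcm5, of the same helicase, had 260, 242 and 212 CPM in SOD1 libraries, against 178, 174 and 188 CPM in WT libraries. These 3 genes had groups that did not overlap. The sign of the list's median differed between the sets, where WT library 1 and SOD1 library 3 were each alone for their genotype. All 30 genes were higher in SOD1 within numbers 1 to 3 (median 0.46), and 20 of 30 were lower within numbers 4 to 6 (median -0.25). Mitosis genes gave 7 of 24 positive and a median of -0.14. They turned as well, with a median of 0.50 within numbers 1 to 3 and -0.60 within numbers 4 to 6.

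Genes that respond to T cell receptor signals leaned to the lower side without a call. The signal strength list had 12 of 16 negative (median -0.24), AP-1 subunits 12 of 12 (median -0.28) and NF-kappaB subunits and targets 12 of 13 (median -0.34). Nfkbid, an NF-kappaB regulator induced by receptor signals, had 54.3, 52.3 and 70.6 CPM in SOD1 libraries, against 75.6, 91.1 and 127 CPM in WT libraries (adjusted p of 0.673). Nr4a1, a nuclear receptor that reports signal strength, had 102, 95 and 162 CPM in SOD1 libraries, against 192, 132 and 245 CPM in WT libraries. Fos, an AP-1 subunit, had 77.3, 76.7 and 225 CPM in SOD1 libraries, against 138, 124 and 416 CPM in WT libraries. For Nr4a1 and Fos the highest library of each genotype, SOD1 3 and WT 3, lay in numbers 4 to 6 and the groups overlapped. Myc ran the other way, at 282, 292 and 333 CPM in SOD1 libraries against 240, 225 and 207 CPM in WT libraries (adjusted p of 0.69). Relb, an NF-kappaB subunit, had 72.4, 77.5 and 72.7 CPM in SOD1 libraries, against 116, 83 and 108 CPM in WT libraries. Within numbers 1 to 3 the medians of the signal strength and NF-kappaB lists were -0.81 and -0.74, and within numbers 4 to 6 they were 0.29 and 0.14.

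Heat shock genes, which encode chaperones and their regulators, gave 17 of 19 negative and a median of -0.33, with none called. Within numbers 1 to 3 the median was -0.54, and within numbers 4 to 6 it was -0.07 with 8 of 19 genes positive. WT library 3 was the highest for 10 of the 19. Hspa1a, an inducible HSP70, had 222, 207 and 577 CPM in SOD1 libraries, against 609, 525 and 1330 CPM in WT libraries. Its near-identical copy Hspa1b, with which it can share reads, had 187, 191 and 736 CPM in SOD1 libraries, against 563, 564 and 1470 CPM in WT libraries. In each set the SOD1 libraries were below the WT library or libraries, except that SOD1 3 exceeded WT 2. The adjusted p-values were 0.673 and 0.7. Hsf1, the factor that switches these genes on, had 130, 122 and 130 CPM in SOD1 libraries, against 144, 150 and 219 CPM in WT libraries.

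Genes of antigen-presenting cells and B cells leaned to the lower side without a call. MHC class II presentation had 15 of 16 negative (median -0.41), B cell markers 13 of 15 (median -0.46) and dendritic cell markers 9 of 12 (median -0.43), with none called. WT library 2 was the highest for 11 of the 15 B cell markers, and without it their median was -0.12. Groups did not overlap on the lower side for 5 of 16, 4 of 15 and 1 of 12 genes, beside 3.8% of all genes. Ciita, the master regulator of MHC class II genes, had 5.56, 5.4 and 3.39 CPM in SOD1 libraries, against 9.98, 18 and 11.6 CPM in WT libraries (log2 fold change -1.44 ± 0.37, adjusted p of 0.587). H2-Ob, a class II chain of B cells, had 30.2, 39.5 and 40.3 CPM in SOD1 libraries, against 63.3, 67.7 and 111 CPM in WT libraries. Both were lower in every SOD1 library than in any WT library. Cd79a overlapped, at 94.4, 87.4 and 91.3 CPM in SOD1 libraries and 142, 172 and 46 CPM in WT libraries. Summed over the 15 B cell markers, the levels were 389 to 430 CPM in SOD1 libraries and 379 to 805 CPM in WT libraries, and all 15 genes were detected in each library except Pax5, at 0 in WT library 3. Zbtb46, a factor of conventional dendritic cells, had 12.2, 19.3 and 4.38 CPM in SOD1 libraries, against 27.9, 26.6 and 31.1 CPM in WT libraries. Bst2, of the same list, stood apart on the higher side. It had 85.8, 112 and 76.9 CPM in SOD1 libraries, against 69.5, 74.5 and 39.6 CPM in WT libraries. In CD4 cells of day 120 the medians of the class II, B cell and dendritic cell lists were -0.78, -1.54 and -1.295, over the members tested there. In Treg cells of day 30 they were 0.31, 0.005 and 0.38. The part of the number of B cells and dendritic cells in the class II values was not tested.

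Inflammatory cytokines and chemokines had 16 of 20 negative and a median of -0.48, with none called. Groups did not overlap on the lower side for 4 of the 20, beside 3.8% of all genes. Within numbers 1 to 3 the median was -0.70, and within numbers 4 to 6 it was 0.07 with 10 of 20 genes positive. WT library 3 was the highest for 11 of the 20. Cxcl1, a neutrophil chemoattractant, had 4.18, 5.2 and 2.83 CPM in SOD1 libraries, against 22.8, 10.5 and 30.2 CPM in WT libraries (log2 fold change -2.36 ± 0.62, adjusted p of 0.587). Cxcl2, a related chemokine, had 16.9, 15.6 and 48.2 CPM in SOD1 libraries, against 62.8, 51.6 and 116 CPM in WT libraries. Tnf had 9.53, 9.18 and 5.51 CPM in SOD1 libraries, against 15.5, 12.2 and 48.7 CPM in WT libraries. Groups stood apart for each of these, and also for Ccl3. Macrophage and monocyte markers summed to 266 to 586 CPM in SOD1 libraries and 248 to 478 CPM in WT libraries, and the part of such cells in the chemokine values was not tested. Interferon response genes divided evenly, with 12 of 24 positive and a median of 0.00. Oasl2 had 36.4, 25.7 and 48.4 CPM in SOD1 libraries against 9.98, 17.6 and 21.9 CPM in WT libraries, while Mx1 had 8.78, 6.95 and 3.82 CPM in SOD1 libraries against 9.79, 18.4 and 15.5 CPM in WT libraries.

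The list of homing and recirculation receptors had 14 of 19 negative, with WT library 1 highest for 13 of 19 (68.4%), and without that library the median of -0.25 was 0.10. Il1rl1, the interleukin-33 receptor found on tissue Treg cells, had 9.65, 7.49 and 2.69 CPM in SOD1 libraries, against 41.2, 27.1 and 9.14 CPM in WT libraries. Within each set SOD1 was lower, by log2 differences of -2.15 and -2.19, yet SOD1 library 1 exceeded WT library 3 (adjusted p of 0.673). Ccr9, a chemokine receptor of developing thymocytes, had 721, 642 and 541 CPM in SOD1 libraries, against 578, 469 and 358 CPM in WT libraries. Havcr2, the inhibitory receptor TIM-3, had 18, 25.6 and 22.5 CPM in SOD1 libraries, against 47.3, 43.4 and 48.4 CPM in WT libraries, without overlap (adjusted p of 0.673). Irf4, a factor of activated Treg cells, had 21.1, 27.2 and 32.9 CPM in SOD1 libraries, against 60.3, 69 and 28 CPM in WT libraries. Markers of double-positive thymocytes gave 10 of 13 positive and a median of 0.11, which was -0.02 with the set as a covariate. Within numbers 1 to 3 it was 0.19, and within numbers 4 to 6 it was -0.29. Ptcra, the pre-T cell receptor chain, had 59.2, 35.9 and 18.8 CPM in SOD1 libraries, against 21.6, 25.6 and 22.5 CPM in WT libraries.

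Of 28 tested genes for superoxide, peroxide and thiol defence, Sod1 was called and no other, and the median was 0.03. Prdx2, a peroxiredoxin, had 234, 218 and 126 CPM in SOD1 libraries, against 160, 171 and 102 CPM in WT libraries. Txnrd1, thioredoxin reductase, had 152, 204 and 141 CPM in SOD1 libraries, against 224, 177 and 207 CPM in WT libraries. Both overlapped, at adjusted p-values of 0.776 and 0.804. Integrated stress response genes (10 of 20 positive, median -0.01) and proteasome and autophagy genes (14 of 25 positive, median 0.01) stood near the median of all genes. Psmb5, a catalytic proteasome subunit, had 136, 106 and 86.5 CPM in SOD1 libraries, against 75.2, 60.9 and 56.3 CPM in WT libraries. Groups did not overlap for 3 of these 25 genes on the lower side, beside 3.8% of all genes. On the higher side this held for 1, Psmb5, beside 4.56% of all genes. Tbk1 and Optn, an autophagy kinase and receptor whose human genes are linked to ALS, were among those on the lower side. Tbk1 had 109, 118 and 100 CPM in SOD1 libraries, against 133, 159 and 196 CPM in WT libraries, and Optn had 3.01, 7.22 and 5.94 CPM in SOD1 libraries, against 8.26, 14 and 11.9 CPM in WT libraries. Their adjusted p-values were 0.673 and 0.761.

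Values of mitochondrial genes are given beside those with the set as a covariate. All 13 mitochondrially encoded genes had negative log2 fold changes and none was called, with a median of -0.50, and with the set as a covariate the median was -0.15. Nuclear respiratory chain genes had 33 of 38 positive and a median of 0.17, which was 0.04 with the set. mt-Cytb, a subunit of complex III, had 1410, 1080 and 4030 CPM in SOD1 libraries, against 1520, 3740 and 5230 CPM in WT libraries, so that its values divided by set and not by genotype. In glycolysis, 11 of 20 genes were positive (median 0.06). Pfkl, a phosphofructokinase, stood on the lower side with Hk2, at 94, 87.4 and 81.3 CPM in SOD1 libraries against 103, 113 and 160 CPM in WT libraries. Tpi1, of the same list, leaned to the higher side with overlapping groups. It had 340, 338 and 230 CPM in SOD1 libraries, against 259, 230 and 186 CPM in WT libraries. Cholesterol and fatty acid synthesis had 18 of 23 negative (median -0.22). Scd1, a fatty acid desaturase, had 19.9, 22.6 and 16.1 CPM in SOD1 libraries, against 31.3, 36.6 and 55.7 CPM in WT libraries.

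Single libraries carried genes of blood cells. S100a8, a neutrophil protein, had 54 CPM in SOD1 library 1 and 0 CPM in the other SOD1 libraries, against 2.41, 1.65 and 0.609 CPM in WT libraries. Hba-a2, an alpha globin, had 0.0301, 17.9 and 0 CPM in SOD1 libraries and was listed at 0 in all WT libraries. Summed over 9 neutrophil markers the levels were 4.29 to 171 CPM in SOD1 libraries and 7.31 to 20.1 CPM in WT libraries.

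**Figure D5:**
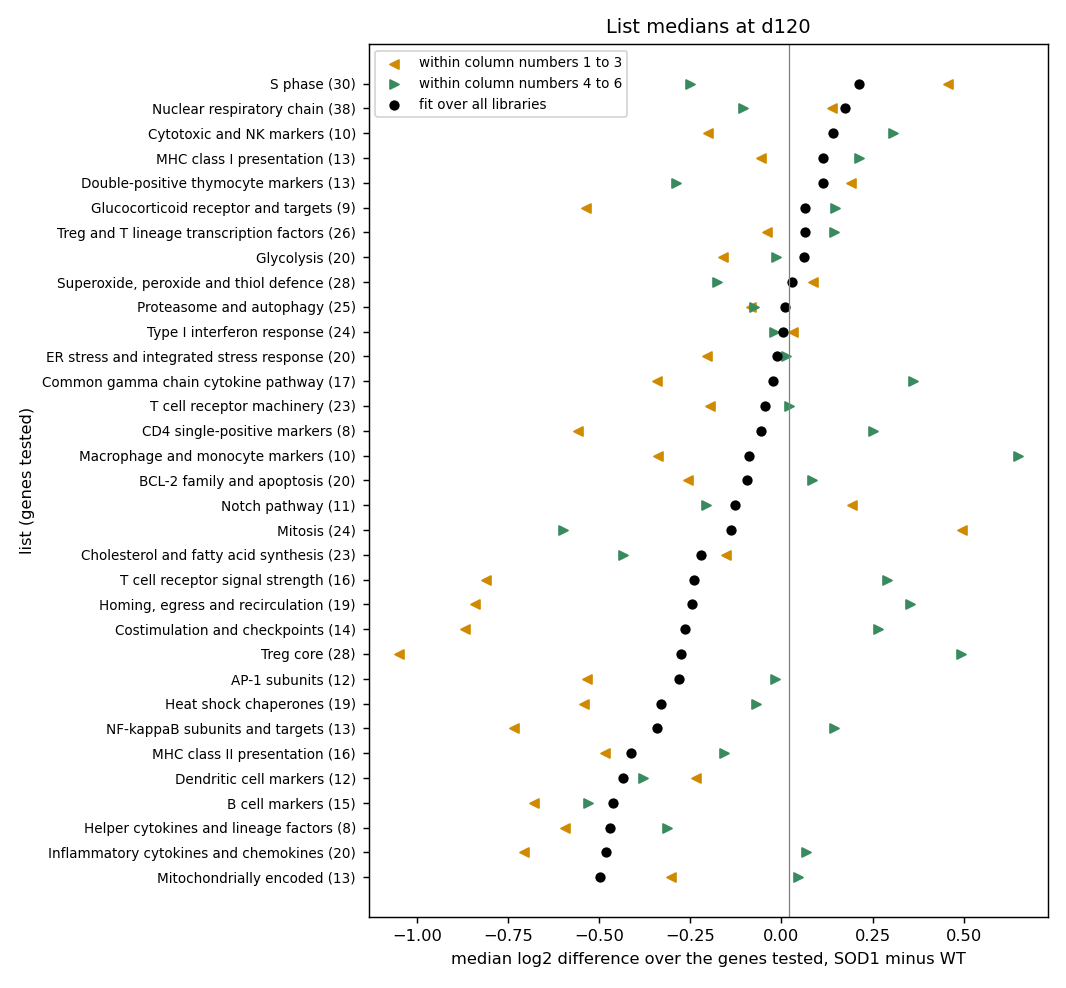
Median log2 difference, SOD1 minus WT, over the tested genes of each list with at least 8 of them, blood cell lists left out, from the fit (black) and within column numbers 1 to 3 (orange) and 4 to 6 (green). Medians of the Treg core, homing and T cell receptor signal strength lists, among others, lie on opposite sides of 0 in the sets. Those of the B cell, dendritic cell and MHC class II lists lie below 0 in both. So do those of the AP-1, helper cytokine, heat shock, proteasome, glycolysis and cholesterol lists.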

How the data were processed

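The authors deposited counts per gene for the sorted cells, made from low-input full-length RNA libraries per the labels, and these were used as deposited. Per the submitters' processing notes the build is mm10 and DESeq2 was used. For the aligner, the counter and strand handling, a statement is not given in the sources used here. Of 55487 gene IDs, 55394 matched GENCODE vM21, which gave symbols and positions. Total counts ran from 3241250 to 34151147 per day 120 Treg library.

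Counts were tested with edgeR 4.0.16 (R 4.3.3), using TMM scaling, filterByExpr by group, estimateDisp, glmQLFit (legacy) and glmQLFTest over the 12 Treg libraries in 4 groups. A gene was called when its p, adjusted by Benjamini-Hochberg over all genes tested, was under 0.05. The planned design named a dispersion per gene, and a first fit with it called 27 genes. The trended dispersion, with a quasi-likelihood dispersion per gene, was adopted after that count had been seen. It is the default of the legacy mode of glmQLFit, which was set here by choice, and was used earlier on these data. The test was also run on simulated counts. These were drawn without a difference between the column number sets, so they cannot show how the test behaves with such a difference. CD4 contrasts came from a fit of the 12 day 120 libraries of both populations, without pairing by column number.

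Levels are CPM over the tested genes with TMM factors, unless given over total counts. Within-set differences use log2(CPM + 1) without a test. Named genes were Sod1, Gm8566, called genes, up to 12 genes a direction by smallest p (mean of at least 5 CPM, groups that do not overlap, no predicted genes or receptor segments), and members of the lists. The genes, the 38 lists and the rule were chosen with earlier results of these data known. Alternatives were DESeq2 1.42.0, RLE scaling, no filter, limma 3.58.1 voom, other dispersions, the column number set, the replicate number and each library left out. Sequences and some list members are not reported here.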

Additional observations from a re-analysis of the deposited data

How the results depend on the processing

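Sod1 and Gm8566 were higher in SOD1 under every alternative run, but the number of genes called depended on the tool and on the dispersion. Beside the 2 genes called at day 120, DESeq2 called 44, no filter on low counts 222, a dispersion per gene 27, limma voom with sample quality weights 1 (Sod1) and the 6 libraries alone 1 (Gm8566). Leaving out 1 library gave 1 to 7, with 4 without WT library 1, 1 without WT library 2 (Sod1 at an adjusted p of 0.136 in edgeR) and 7 without WT library 3. Of the 23 genes named without a call, DESeq2 called 18, a dispersion per gene 11 and no filter 8.

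Between days, with 0 calls, DESeq2 gave 6, no filter 140 and a dispersion per gene 9, and leaving out 1 library gave 0 to 1. Between populations, with 0 calls, DESeq2 gave 7, no filter 54 and a dispersion per gene 2. For the column number set, with 467 calls, DESeq2 gave 1847, no filter 1614, voom 9, a dispersion per gene 1768 and the 6 libraries alone 0. Leaving out 1 library gave 10 (without SOD1 library 3) to 1456 (without WT library 2). RLE scaling gave 272 higher and 184 lower genes for the set, against 205 and 262. The causes were not tested.

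Same-numbered SOD1 and WT libraries of day 120 had correlations of 0.095, -0.041 and 0.06 in their deviations from the group means, so the replicate numbers were not taken as pairs. With the replicate block 6 genes were called at day 120, among them Hspa1a and Hspa1b, and 0 between days. Treg and CD4 libraries that share a column number gave correlations of 0.097 to 0.199. Those of the same genotype with different numbers gave -0.169 to 0.03. The main comparison between populations did not pair libraries by column number, and with that replicate block 0 genes were called between populations.

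Log2 fold changes over the libraries left out ran from -0.63 to 0.36 for Foxp3, -0.42 to 0.08 for Ctla4, -0.97 to 0.17 for Ikzf2, -0.976 to 0.068 for Tnfrsf4, -0.83 to 0.24 for Il2rb and -7.00 to 3.92 for S100a8. With the set as a covariate Ikzf2 was at 0.12. None of these genes was called. Of 38 list medians, 20 had the opposite sign under at least 1 alternative.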
